A study of Mus musculus with 2 samples.

Results

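Homologous recombination and the Fanconi anaemia pathway were described here through 43 genes in whole mouse embryos of embryonic day 10.5, chosen by symbol as a list of repair genes and not by their levels. The deposited tables held 37681 Ensembl gene identifiers in 34624 loci, and all 43 genes had a locus. Each locus is a single gene or a row in which overlapping genes were combined in the deposited tables. Rows of their own were found for 34 members, and 9 lay in joined loci, whose values cannot be given to a single gene. The series held 1 group of 2 replicates from CBA/Ca×C57Bl/10 crosses, untreated, with no second condition, so levels are described and no groups are tested against each other. Whether single or pooled embryos made up a replicate is not in the labels, and the spread between the replicates may be technical. Counts summed over loci came to 18318181 in replicate 1 and 117522171 in replicate 2, so replicate 2 was 6.42 times deeper. All 9 markers of embryonic tissues, among them Nes of neural progenitors, the cardiac actin Actc1 and the embryonic globin Hbb-y, reached 1 RPKM in both replicates (reads per kilobase of transcript, scaled to library size). Of 5 trophoblast and decidua markers 1 did, Prl8a2, at 1.23 RPKM in replicate 1 (13 reads) and 6.38 in replicate 2 (383 reads). Prl3b1 had 1.90 and 0.970 RPKM, Prl3d1 had 2 and 46 reads, and Tpbpa and Psg21 had no reads.

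Homologous recombination repairs a double-strand break by copying the sister chromatid: the broken ends are cut back to single strands, BRCA1 and PALB2 bring BRCA2 to them, and a single strand invades the intact copy. The Fanconi proteins act on crosslinks between the DNA strands, where a core complex attaches ubiquitin to FANCD2 and FANCI and so directs nucleases and recombination to the stalled fork. Many of these genes are needed by dividing cells: mouse embryos without Brca1, Brca2, Chek1, Atr, Topbp1, Mre11a or Rad50 die. Mice without single Fanconi genes are often born but have fewer germ cells.

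Promoter sequences are shown for the 5 members with a match to the binding motif of the E2F factors, which drive many genes of the S phase, because that motif was more frequent among the members than among all genes. RefSeq windows of the 250 bases before the start (build GRCm38.p6, not the build of the deposited files) were held for 34 of the 43 members. The motif was searched on both strands as TTTCCCGC or TTTGGCGC. It lay in the windows of 5 of these 34 members (14.7%), against 407 of 27025 genes with a window (1.51%) and 242 of 8556 genes that had a locus of their own of 1 RPKM or more in both replicates (2.83%). The 34 members with a window are not the 34 with a locus of their own. Fanca, Fancf, Rad54l and Rnf8, for example, have a window but lie in joined loci, which the detected genes leave out. The other motifs searched were the CCAAT box (CCAAT), held by 18 of 34 members (52.9%) against 37.5% of all genes and 40.9% of those detected genes, the cell cycle element CHR (TTTGAA), held by 2 members (5.88%) against 18.3% and 12.8%, and the TATA box (TATAAA), held by 1 member (2.94%) against 14.3% and 8.22%. The CCAAT box was thus also more frequent among the members. The E2F windows were picked for display by the frequency given here, so that frequency is a description and no support. All these motifs were chosen after the levels were known, and a match is a description of the letters, not a binding site. Each window is printed 5′ to 3′ on the strand of its gene, with the E2F match in capitals. Positions are chr1:71102973-71103222, minus strand, for Bard1, chr4:43010302-43010551, minus strand, for Fancg, chr5:110839733-110839982, plus strand, for Chek2, chr5:150522371-150522620, plus strand, for Brca2 and chr17:35841248-35841497, plus strand, for Mdc1.
Bard1: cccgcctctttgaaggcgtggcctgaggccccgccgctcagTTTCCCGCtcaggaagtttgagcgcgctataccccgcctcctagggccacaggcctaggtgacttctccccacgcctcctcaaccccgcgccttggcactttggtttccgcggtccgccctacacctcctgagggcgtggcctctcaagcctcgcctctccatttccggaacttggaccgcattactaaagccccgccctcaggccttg
Fancg: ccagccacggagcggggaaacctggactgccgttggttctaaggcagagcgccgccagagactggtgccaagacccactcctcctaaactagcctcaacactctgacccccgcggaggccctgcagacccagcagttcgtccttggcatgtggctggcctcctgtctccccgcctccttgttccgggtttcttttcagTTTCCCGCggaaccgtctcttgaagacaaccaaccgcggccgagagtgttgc
Chek2: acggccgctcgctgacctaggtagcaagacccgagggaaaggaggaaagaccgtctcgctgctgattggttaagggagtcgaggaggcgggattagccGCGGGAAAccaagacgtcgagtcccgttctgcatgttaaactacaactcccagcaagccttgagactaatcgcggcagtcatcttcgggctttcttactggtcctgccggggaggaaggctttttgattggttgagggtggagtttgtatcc
Brca2: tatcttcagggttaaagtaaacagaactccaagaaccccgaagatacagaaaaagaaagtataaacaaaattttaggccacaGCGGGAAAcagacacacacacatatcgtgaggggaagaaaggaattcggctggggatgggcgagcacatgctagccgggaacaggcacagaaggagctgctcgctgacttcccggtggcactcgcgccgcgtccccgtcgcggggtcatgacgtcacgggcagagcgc
Mdc1: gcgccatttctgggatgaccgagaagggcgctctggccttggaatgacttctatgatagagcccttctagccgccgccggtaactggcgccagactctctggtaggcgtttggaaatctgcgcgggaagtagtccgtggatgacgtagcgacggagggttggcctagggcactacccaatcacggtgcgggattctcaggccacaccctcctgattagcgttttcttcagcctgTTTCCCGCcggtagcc
The match ended 8 bases before the start in Mdc1, 44 in Fancg, 144 in Chek2, 160 in Brca2 and 201 in Bard1, so it held no common place. In Chek2 and Brca2 it stood on the opposite strand and reads GCGGGAAA. The 5 genes were not the highest members: their mean levels lay between 9.61 RPKM (Fancg) and 43.5 RPKM (Brca2), below the median of all members (46.4 RPKM), which includes joined loci. Among the 34 members with a locus of their own, as these 5 have, the median was 29.7 RPKM, and Brca2 lay above it.

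The loci of all 43 genes reached 1 RPKM in both replicates, against 49.4% of all loci and 65.0% of protein-coding loci. For the 9 joined loci this does not show that the member itself was detected. All 34 members with a locus of their own passed, against 10668 of 17085 protein-coding loci of their own. Over the 43 loci the median level was 52.2 RPKM in replicate 1 and 34.7 in replicate 2. The protein-coding loci of 1 RPKM or more in the mean had 24.3 and 17.6. By mean RPKM the median member stood at percentile 80.1 of the protein-coding loci, and 42 of 43 lay above the 50th percentile, the exception being Xrcc3 at 49.5. Joined loci were high as a class, with a median of the mean levels of 33.7 RPKM over those of 1 RPKM or more, against 19.5 for protein-coding loci of their own. The 9 joined members had a median of 111 and 69.3 RPKM, and the 34 with a locus of their own had 36.7 and 24.9. Among protein-coding loci of their own, these 34 had a median percentile of 74.8 and all lay above 50. They covered 19.3-fold in replicate 1 and 32.0-fold in replicate 2, between Chek1 at the top and Rad51d or Xrcc3 at the bottom. The order held between the libraries, with Spearman's rho 0.97 across the 43 genes, which are not independent replicates and share the same 2 libraries. In such bulk tissue, fewer cells that express a gene and less RNA per cell cannot be told apart.

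**Figure D1:**
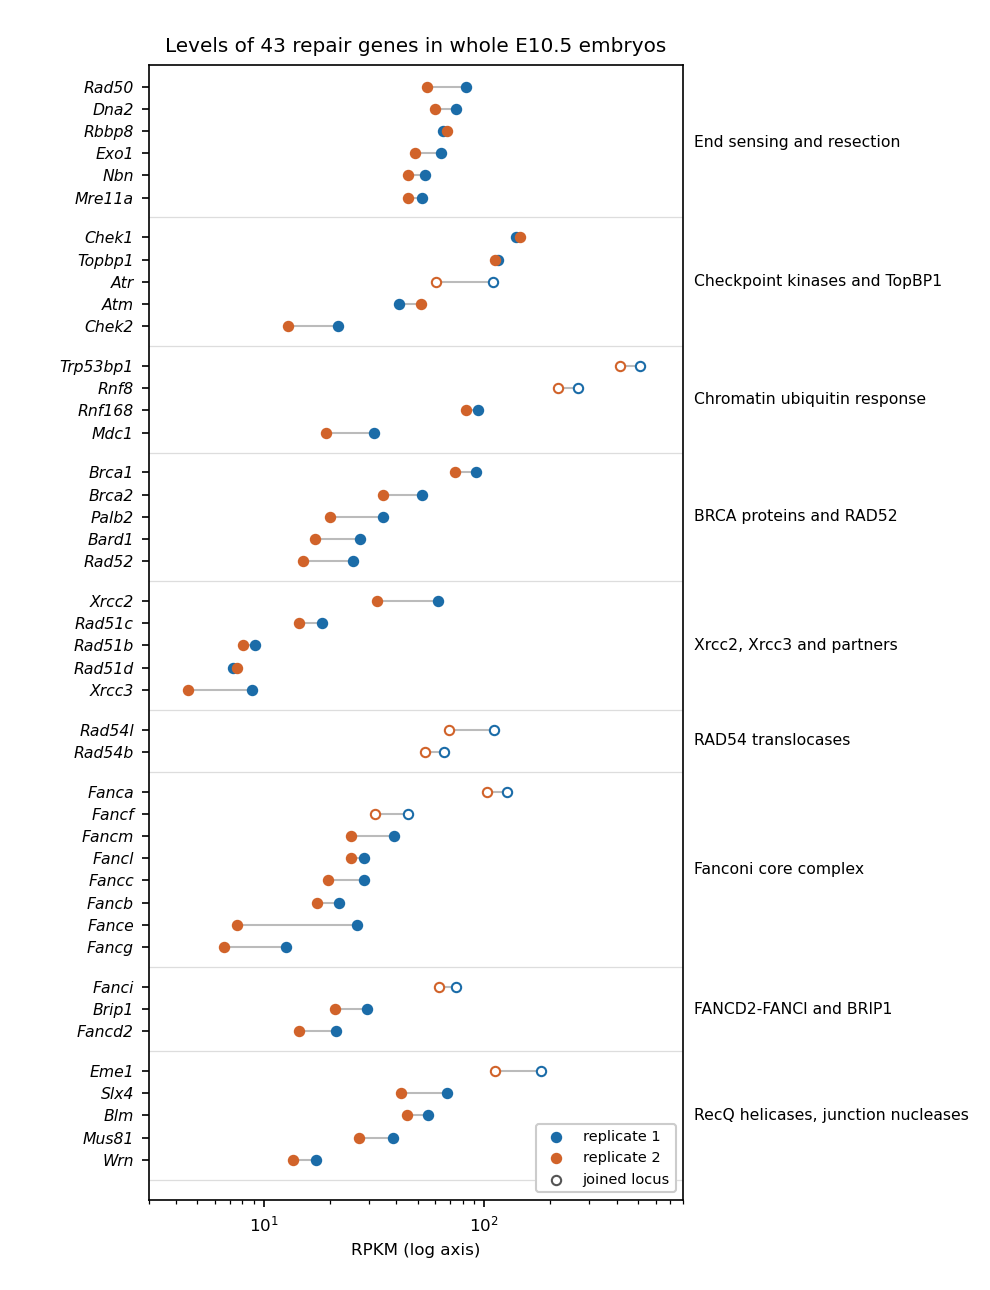
RPKM of the 43 genes on a log axis, by role, with 1 point for each replicate joined by a line and open points for genes in joined loci. The resection genes lie close together, the group of Rad51b, Rad51c, Rad51d, Xrcc2 and Xrcc3 has the lowest median (9.09 and 8.04 RPKM) with Xrcc2 far above it (61.9 and 32.7 RPKM), and the highest points are joined loci.

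By RPKM, the genes that sense and cut back broken ends lay close together. Rad50, the ATPase of the MRN complex, stood at 82.9 RPKM in replicate 1 (2960 reads) and 55.3 in replicate 2 (16099 reads). Its nuclease Mre11a had 52.4 and 45.0 RPKM, and Nbn, which brings the kinase ATM to the complex, had 54.0 and 45.4. These values put Nbn and Mre11a side by side, with Rad50 above Mre11a in each replicate by less than the replicate spread at that level. Rbbp8 (CtIP), which starts resection together with MRN, had 65.3 and 68.2 RPKM. The long-range nucleases followed with 63.7 and 48.4 RPKM for Exo1 and 74.5 and 59.7 for Dna2, which works with the BLM helicase. All 6 means lay between 48.7 and 69.1 RPKM, at percentiles 81.0 to 86.5 of protein-coding loci. Per kilobase of the longest listed transcript they lay farther apart. Rbbp8 was highest there, at 39.4 and 35.4 CPM per kilobase, and Mre11a (13.7 and 11.8) and Exo1 (16.4 and 11.01) were lowest.

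By RPKM, the checkpoint genes of the ATR branch stood above Atm and Chek2 of the ATM branch in both replicates, with the reservation that Atr lies in a joined locus and that the RPKM of Chek1 rests on a short implied length, described further on. In CPM per kilobase of the longest listed transcript Atm stood above Chek1 in both replicates, at ranks 10 and 12 of the 34 genes with a locus of their own. Chek1, the effector kinase of ATR, was the highest member with a locus of its own, at 140 and 145 RPKM, from 1212 and 6558 reads. Topbp1, the activator of ATR, had 116 and 112 RPKM from far more reads, 7509 and 41204, on its single listed transcript. Atr itself lay in a locus joined with Xrn1 on the same strand and 2 identifiers without a symbol, and that locus had 109 and 60.5 RPKM. Atm, the kinase that responds to double-strand breaks, had 41.2 RPKM in replicate 1 and 51.7 in replicate 2, and was 1 of the 4 members that were higher in replicate 2. Chek2, the effector kinase of ATM, had 21.8 and 12.8 RPKM from 502 and 1682 reads, the lowest of the 5.

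The chromatin response to breaks, in which MDC1 binds phosphorylated H2AX and RNF8 and RNF168 ubiquitinate the neighbourhood, held the highest values of the list, though in joined loci. The locus of Trp53bp1, the reader that restrains resection, had 511 and 413 RPKM from 12952 and 58229 reads, but it is shared with Tubgcp4 on the opposite strand and Zscan29, and it lists 40 transcripts. Rnf8 shared its locus of 29 transcripts with Ccdc167, Cmtr1, Tbc1d22b and Tbc1d22bos, at 267 and 217 RPKM. Neither value can be read as that of the repair gene. With a locus of their own, Rnf168 had 93.8 and 82.8 RPKM (3025 and 15168 reads) and Mdc1 had 31.5 and 19.2 RPKM (2291 and 7804 reads), which put the ligase above the adaptor in both replicates, in a comparison that was not among the pairs.

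Brca1 was the highest of the BRCA genes in both replicates. It had 92.1 RPKM in replicate 1 (6565 reads) and 73.8 in replicate 2 (30816 reads). Bard1, with which BRCA1 forms its ubiquitin ligase, had 27.5 and 17.1 RPKM, from 993 and 3518 reads. Brca1 and Bard1 encode an obligate pair of proteins, yet the transcript of Brca1 exceeded that of Bard1 by 1.88 ± 0.24 on the log2(RPKM + 1) scale (SD, n = 2), beyond the replicate spread. Brca2 had 52.2 and 34.7 RPKM from 7514 and 28356 reads on its single long transcript. Palb2, the bridge between BRCA1 and BRCA2, had 34.8 and 20.1 RPKM. Rad52, which anneals single strands, was the lowest of the 5 by mean RPKM, at 25.5 and 15.1. In CPM per kilobase Bard1 was lowest instead (9.58 and 5.29), below Palb2 (14.6 and 7.49) and Rad52 (16.2 and 9.02). All 5 were higher in replicate 1, as most loci were.

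Rad51b, Rad51c, Rad51d, Xrcc2 and Xrcc3, whose proteins assist strand exchange, were the lowest role group, with a median of 9.09 RPKM in replicate 1 and 8.04 in replicate 2. RAD51B, RAD51C, RAD51D and XRCC2 form 1 complex, and RAD51C also pairs with XRCC3. Xrcc2 had 61.9 RPKM in replicate 1 (745 reads) and 32.7 in replicate 2 (2201 reads), and stood far above the other members of its complex. Rad51c had 18.4 and 14.4 RPKM, from 278 and 1199 reads. Rad51b had 9.09 and 8.04 RPKM, from 128 and 491 reads. Rad51d had 7.23 and 7.55 RPKM from 102 and 574 reads, which with exact Poisson limits is 5.57 CPM (counts scaled to the library's total count, 95% interval 4.54 to 6.76) in replicate 1 and 4.88 CPM (4.49 to 5.30) in replicate 2. Those intervals overlap, so at this depth no difference of Rad51d between the libraries was detectable in CPM. Xrcc3 was the lowest of all 43 genes by mean RPKM, though above Rad51d in replicate 1, at 8.86 RPKM (102 reads) and 4.54 RPKM (338 reads), or 5.57 CPM (4.54 to 6.76) and 2.88 CPM (2.58 to 3.20). Here the intervals do not overlap, though they cover counting error only and not the difference between embryos. Of the RAD54 translocases, which drive strand invasion, Rad54l shared a locus with Lrrc41 on the opposite strand (111 and 69.3 RPKM), and Rad54b shared one with the antisense gene Gm11832 (65.6 and 54.0 RPKM).

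The loci of all 8 genes of the Fanconi core complex, 2 of them joined, lay above the 50th percentile of protein-coding loci, the lowest at 54.1. Fancl, the ubiquitin ligase subunit, had 28.5 RPKM in replicate 1 and 25.0 in replicate 2. Its partner in the catalytic module, Fancb, had 22.0 and 17.4 RPKM. Fancm, the translocase that anchors the complex on DNA, had 39.1 and 24.8 RPKM from 3289 and 11691 reads. Fancm had the most reads of the core genes with a locus of their own. Fancc had 28.4 and 19.6 RPKM, and its partner Fance had 26.5 RPKM in replicate 1 and 7.60 in replicate 2, the largest replicate difference of the 43. Fancg, a partner of FANCA, was the lowest core gene, at 12.6 and 6.63 RPKM from 398 and 1374 reads. Fanca and Fancf lay in joined loci. That of Fanca held Zfp276, Cdk10, Vps9d1, Spata2l and 1 identifier without a symbol (127 and 103 RPKM, 36 transcripts), and that of Fancf held Gas2 (45.0 and 32.1 RPKM).

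Downstream of the core complex, Fancd2 had 21.3 RPKM in replicate 1 (1002 reads) and 14.4 in replicate 2 (3495 reads). Fanci, its partner in the ubiquitinated clamp, had 74.6 and 62.5 RPKM, but in a locus with the mitochondrial polymerase gene Polg on the opposite strand. Brip1, the helicase bound by BRCA1, had 29.3 and 21.04 RPKM, above Fancd2 in both replicates. Among the enzymes that resolve recombination intermediates, the RecQ helicase Blm had 55.4 and 44.6 RPKM and its relative Wrn had 17.3 and 13.5. Slx4, the scaffold of the junction nucleases, had 68.0 and 41.8 RPKM, and the nuclease Mus81 had 38.5 and 27.1. Eme1, the partner of MUS81, shared a locus with the mitochondrial ribosomal gene Mrpl27 on the opposite strand, at 181 and 112 RPKM, which again cannot be assigned to Eme1.

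Levels of partner genes were compared in 20 pairs. A difference counted as beyond the replicate spread where it had the same sign in both replicates and its mean was over 2 SD of the replicate ratio of loci at that level. With 2 replicates no exact test can pass the usual thresholds, so no p-value is given. Of the 20 pairs 9 were called, and 5 of those 9 compare loci of their own. Chek1 exceeded Chek2 by 2.63 in replicate 1 and 3.40 in replicate 2 on the log2(RPKM + 1) scale, a mean of 3.01 ± 0.55 (SD, n = 2). Blm exceeded Wrn by 1.64 ± 0.02, with 1.62 and 1.65 in the replicates. Rad51d was below Xrcc2 by a difference of -2.46 ± 0.68, and Rad51c exceeded Xrcc3 by 1.23 ± 0.35, the last of these being within the spread in replicate 1 alone (0.98). The called pairs with a joined locus were Trp53bp1 over Brca1 (2.46 ± 0.01), Fanca over Fancg (3.50 ± 0.38), Fancd2 over Fanci (-1.90 ± 0.20) and Mus81 over Eme1 (-2.10 ± 0.14).

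Not beyond the spread were the subunits of MRN (0.47 ± 0.25 for Rad50 over Mre11a and 0.03 ± 0.02 for Nbn over Mre11a), the resection nucleases (-0.26 ± 0.05 for Exo1 over Dna2) and the Fanconi subunits Fancl over Fancb (0.43 ± 0.10). The same held for Brca1 over Brca2 (0.94 ± 0.18), Palb2 over Brca2 (-0.67 ± 0.13), Rad51b over Rad51c (-0.86 ± 0.12), Slx4 over Mus81 (0.70 ± 0.14), and for the pairs with a joined locus Rnf168 over Rnf8 (-1.44 ± 0.08) and Rad54l over Rad54b (0.56 ± 0.28). Atm over Atr was -1.38 in replicate 1 and -0.23 in replicate 2, so replicate 1 alone lay beyond its limit of 1.18. The limit took the larger SD of both genes. It was 2.39 for Rnf168 over Rnf8 and for Trp53bp1 over Brca1, since the SD at the level of the joined loci of Rnf8 and Trp53bp1 was 1.19. A pair within the spread is not shown to be equal.

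**Figure D2:**
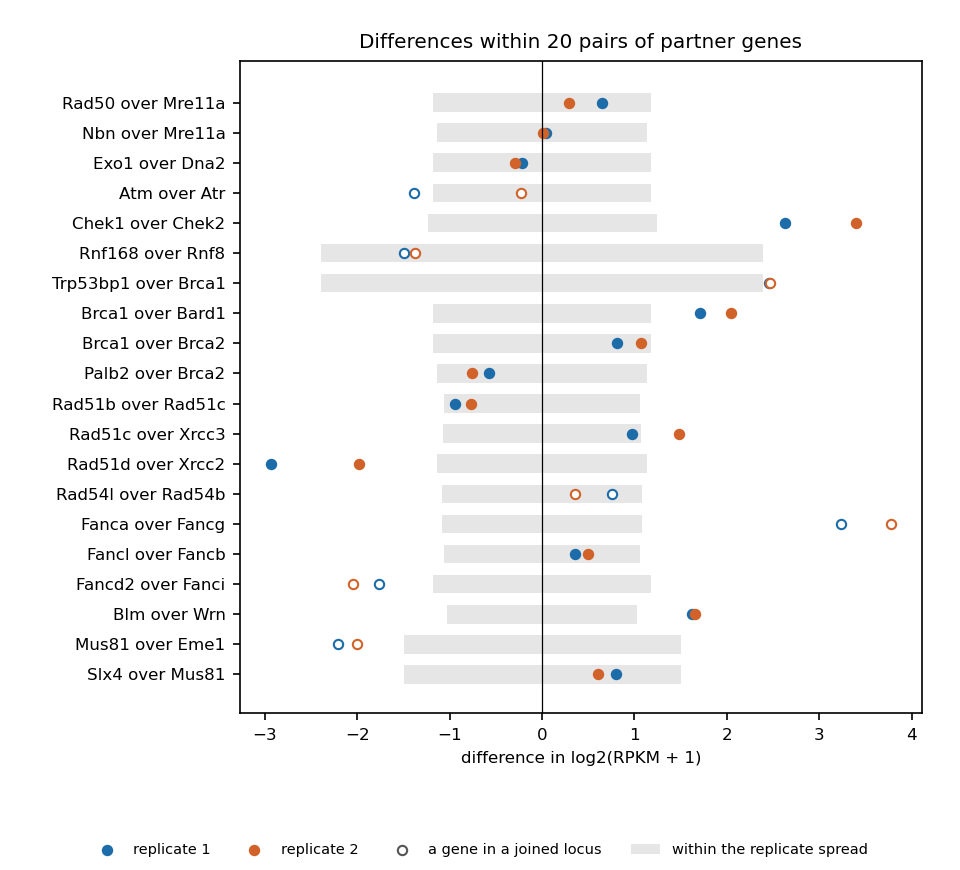
Difference in log2(RPKM + 1) of the first gene over the second in 20 pairs, with 1 point for each replicate, grey bars for the limits of the replicate spread and open points where a gene lies in a joined locus. Chek1 over Chek2 (2.63 and 3.40), Brca1 over Bard1 and Blm over Wrn lie right of the bars, and Rad51d over Xrcc2 lies left.

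The length behind the authors' RPKM differed between loci in a way that touches these comparisons. Counts and RPKM of single-transcript loci gave a library size for each replicate, 5.68 times larger in replicate 2, and with these each locus has an implied length. For Chek1, with 10 listed transcripts, it was 0.633 kb in replicate 1 and 0.579 kb in replicate 2, against 3.80 kb for its longest listed transcript in GENCODE M21. For Chek2, with 1 transcript, it was 1.68 kb in both replicates, against 2.28 kb. A short implied length raises the RPKM for a given number of reads. On the scale of CPM per kilobase of the longest listed transcript, Chek1 had 17.4 and 14.7 and Chek2 had 12.0 and 6.29. The difference of log2(CPM per kb + 1) was then 0.80 ± 0.43, just within its limit of 0.84. Rad51c over Xrcc3 also came within the spread on that scale (0.63 ± 0.11). Brca1 over Bard1 (2.55 ± 0.22), Rad51d over Xrcc2 (-1.95 ± 0.63) and Blm over Wrn (1.91 in both replicates) stayed beyond it. Nbn over Mre11a (1.30 ± 0.13) and Palb2 over Brca2 (-1.40 ± 0.10) passed it on that scale alone.

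Among the 34 members with a locus of their own, the implied length over the longest transcript had a median of 0.738 for the 5 single-transcript genes, 0.706 for the 15 genes of 2 to 5 transcripts, 0.532 for the 10 of 6 to 10, and 0.526 for the 4 of 11 or more. Over all such loci with more than 200 reads in replicate 1 the medians were 0.786, 0.563, 0.456 and 0.399. Transcripts of the later annotation can be longer than those the authors used, as for Exo1 (2.68 kb implied, 7.80 kb annotated, 1 transcript), so neither scale is free of error. By CPM per kilobase Topbp1 ranked 1, Brca1 2 and Rbbp8 3 of the 34, and Chek1 ranked 12. The lowest 4 by either scale were Fancg or Rad51c, Rad51b, Rad51d and Xrcc3.

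**Figure D3:**
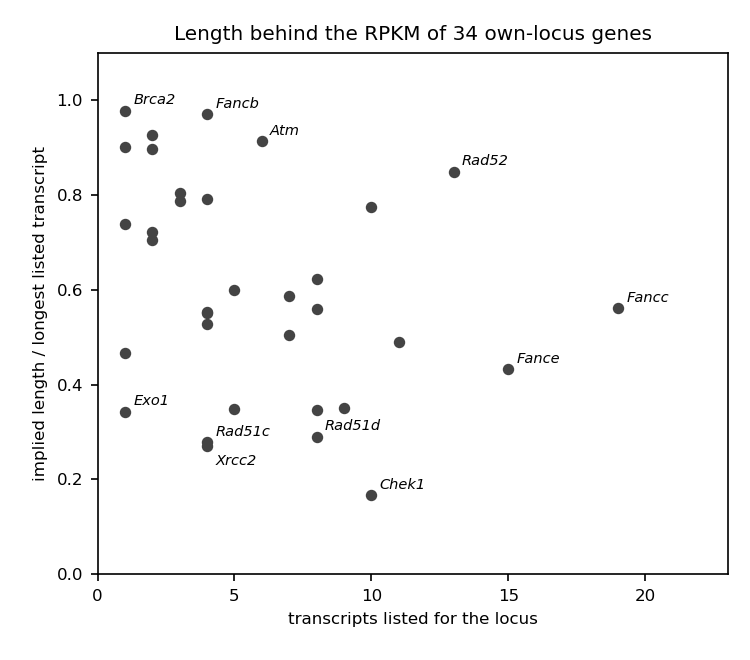
Length implied by counts and RPKM in replicate 1 divided by the longest listed transcript, against the number of transcripts listed, with 1 point for each of the 34 genes with a locus of their own. Chek1 is lowest (0.633 of 3.80 kb), and single-transcript genes range between Exo1 and Brca2 (10.5 of 10.7 kb).

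The embryonic globin Hbb-y had 1746 RPKM in replicate 1 and 6474 in replicate 2, and Hba-x had 1284 and 3219. The yolk sac and liver gene Afp had 196 and 82.0, so some tissue markers differed between the libraries. The other embryo markers differed less in log2(RPKM + 1), replicate 1 minus replicate 2. Nes had -0.16, Tubb3 -0.17, Actc1 -0.0078, Prrx1 0.37, Cdh5 0.38 and Myog 0.66. The part of tissue content in the differences below was not tested. Replicate 1 had the higher RPKM for 39 of the 43 genes, against 79.1% of all loci of 1 RPKM or more in the mean. The median difference of log2(RPKM + 1), replicate 1 minus replicate 2, was 0.39 over the members and 0.38 over those loci, so the members moved with the whole library. In CPM all 43 were higher in replicate 1, against 87.9% of those loci, with a median difference of 0.59 over the members and 0.50 over the loci. Of the protein-coding loci among them, 81.9% were higher in replicate 1 by RPKM and 92.1% by CPM, with median differences of 0.37 and 0.55. The 4 genes that were higher in replicate 2 by RPKM, Atm, Rbbp8, Chek1 and Rad51d, were thus all higher in replicate 1 by CPM. Such a change of direction was seen in 8.96% of all loci of 1 RPKM or more in the mean. The scales divide by different totals, replicate 2 over replicate 1 being 5.68 behind RPKM and 6.42 behind CPM. Topbp1, of equal implied length in both replicates, therefore had 0.05 by RPKM and 0.22 by CPM. Of the 4 genes Atm changed most between the scales, and there the implied length differed as well. It had 41.2 and 51.7 RPKM but 277 CPM (95% Poisson interval 269 to 285) and 206 CPM (204 to 209), and its implied length was 8.97 kb in replicate 1 and 6.02 kb in replicate 2.

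A 2-fold difference between replicates was passed by 1 gene, Fance, higher in replicate 1. Of the loci of 1 RPKM or more in the mean, 8.74% were as much higher in replicate 1 and 3.03% in replicate 2 (5.08% and 1.72% of all loci). The RPKM of Fance in replicate 1 was 3.49 times that in replicate 2, whereas its CPM, 18.8 (16.9 to 20.9) against 10.4 (9.87 to 11.1), differed 1.80-fold. The implied length of Fance was 0.949 kb in replicate 1 and 2.07 kb in replicate 2, over 15 listed transcripts. In CPM the 1 gene beyond 2-fold was Xrcc2 instead, with 40.7 (37.8 to 43.7) against 18.7 (17.9 to 19.5), where 7.96% of loci were as much higher in replicate 1 and 1.65% in replicate 2. Of the 29 multi-transcript members with a locus of their own, 25 had implied lengths that differed by more than 1 percent between replicates. For the 5 single-transcript members the length is the same, and their RPKM differences were 0.05 for Topbp1, 0.39 for Exo1, 0.58 for Brca2, 0.65 for Bard1 and 0.72 for Chek2.

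**Figure D4:**
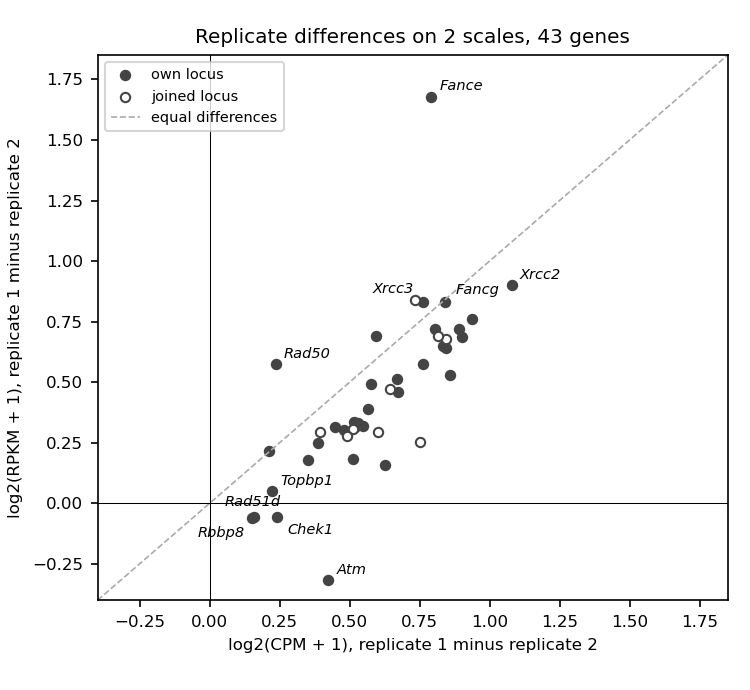
Difference between replicate 1 and replicate 2 in log2(RPKM + 1) against that in log2(CPM + 1) for the 43 genes, with open points for joined loci and a dashed line of equal differences. Fance lies above the line (1.68 by RPKM and 0.79 by CPM), and Atm, Rbbp8, Chek1 and Rad51d lie below 0 on the vertical axis only.

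Other genes of the pathway were taken from lists compiled by function, with earlier results of these data known. All 25 further recombination and fork genes passed the same minimum, and their median was 57.4 and 39.3 RPKM. The recombination mediator genes Sfr1 (301 and 358) and Swi5 (212 and 276, joined with Golga2) and Shfm1, whose small protein binds BRCA2 (206 and 424), were highest by RPKM, and Rmi2 of the BLM complex was lowest (8.49 and 3.18, from 56 and 119 reads). The 10 further Fanconi partners also all passed, with a median of 22.5 and 16.9 RPKM. Usp1, which removes ubiquitin from FANCD2, stood far above the rest at 177 and 153 RPKM, followed by its cofactor Wdr48 (41.8 and 41.7) and the ligase Rfwd3 (37.2 and 27.1), with Faap24 lowest (11.1 and 7.77). All 5 genes of the BRCA1-A complex passed, led by the joined loci of Uimc1 (144 and 186) and Bre (94.0 and 157) and by Brcc3 (72.6 and 63.4), with Fam175a lowest (49.2 and 32.0). The 9 genes of the checkpoint clamp and its mediators passed too, with H2afx (228 and 251), Tipin (161 and 232) and Clspn (163 and 144) highest and Rad9a lowest (17.6 and 12.1).

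Genes of meiotic recombination were much lower in level. The minimum was passed by 13 of 19 loci, a share close to the 65.0% of all protein-coding loci. The list's median was 2.06 and 1.31 RPKM, at the median percentile 36.9 of protein-coding loci, against 80.1 for the 43 genes. Psmc3ip (56.8 and 59.4 RPKM) and Tex15 (15.1 and 9.24) were highest, followed by Prdm9, the methyltransferase that places meiotic breaks (9.40 and 3.87). Mei1 was lowest (0.0917 and 0.0291, from 5 and 9 reads). The meiotic recombinase Dmc1 (1.36 and 1.62 RPKM, 22 and 149 reads) and Spo11, which makes the breaks (0.478 and 0.204 RPKM, 17 and 51 reads), were picked after their values were seen.

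**Figure D5:**
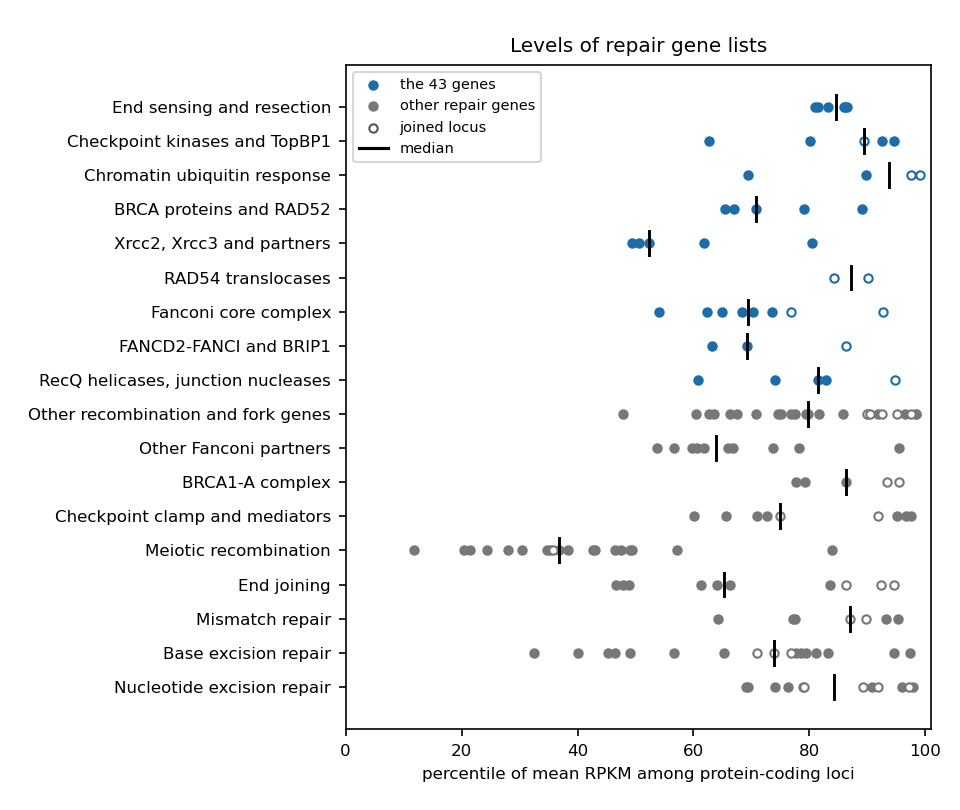
Percentile of mean RPKM among protein-coding loci for each gene, by list, with a bar at the median, blue for the 43 genes, grey for other repair genes and open points for joined loci. The group of Rad51b, Rad51c, Rad51d, Xrcc2 and Xrcc3 has the lowest median of the 9 roles (52.4), and the meiotic list is lowest of all (36.9).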

How the data were processed

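Total RNA of untreated whole embryos was sequenced from Illumina libraries, per the labels' protocols. Reads were aligned with TopHat to mm9, per the submitters' processing notes. The read counter, the use of strand and the RPKM lengths are not stated in the labels or headers. Sense and antisense reads cannot be told apart. In the later GENCODE M21 annotation, 11 of the 34 members with a locus of their own share exon bases with a gene on the opposite strand. They are Mre11a, Rbbp8, Palb2, Brca2, Xrcc3, Fancc, Fance, Fancl, Fancm, Fancd2 and Mus81, whose values may hold reads of that other gene. Per the file headers, the authors deposited RPKM and raw counts per locus for each replicate. RPKM, the per-length unit, was used to compare genes, and the counts gave depth, CPM (each library's counts divided by their total) and exact Poisson intervals. With 1 group, counts were not tested.

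Transcripts per locus were counted as the files list them. Rows with the same gene identifiers were summed, and identifiers were matched to symbols by a table of names (32642 of 37681, 86.6%). Of 34624 loci, 2473 (7.14%) joined several identifiers. Ratios used a pseudocount of 1. The spread for pairs was the SD of the replicate log2 ratio in 20 bins of mean RPKM over loci of 1 RPKM or more. A count of 0 allowed up to 0.164 CPM in replicate 1 and 0.0255 in replicate 2 (3 counts). Transcript lengths and gene classes came from GENCODE M21 and promoter windows from RefSeq, matched by symbol, with no coordinates carried between builds. All members were named, as were the 3 highest and the lowest gene of each further list, except for a few that are not reported here. Members, lists and pairs were chosen with earlier results of these data known. Alternatives covered the minimum, pseudocount, scaling, joined loci, the SD limit and each replicate left out. Those on CPM per kilobase, single-transcript loci and the protein-coding background were added after seeing the data. Python 3.11.15, pandas 2.3.3, numpy 2.4.6 and scipy 1.17.1 were used, and the code was tested on simulated data.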

Additional observations from a re-analysis of the deposited data

How the results depend on the processing

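The loci of all 43 genes reached the minimum at 0.3 and at 3 RPKM, with replicate 1 rescaled, and without either replicate (43 to 43), as did 34 of 34 with loci of their own. The 114 further repair loci passed at 107 (85 of 92 with loci of their own, 99 at 3 RPKM, 107 to 109 without a replicate). The median level of 46.4 RPKM ranged from 34.7 to 52.2 without a replicate. It was 29.7 RPKM over loci of their own, and 72.2 in CPM, another unit. The median replicate difference of 0.39 (log2) became -0.0032 when replicate 1 was rescaled to a median ratio of 0 over loci of 1 RPKM or more, and stayed between 0.39 and 0.59 with the other pseudocounts, in CPM and over loci of their own (0.58 over the 5 single-transcript genes). One gene passed 2-fold under each alternative, Fance by RPKM and Xrcc2 by CPM. Pairs beyond the spread numbered 9 of 20, 9 to 9 without a replicate (Atm over Atr replacing Rad51c over Xrcc3 without replicate 2), 5 of 13 for loci of their own, 15 at a limit of 1 SD, 6 at 3 SD, 8 with a pseudocount of 0.01 (losing Rad51c over Xrcc3) and 5 of 13 in CPM per kilobase. No pair called by RPKM changed direction under those of these alternatives in which it was computed, and the 4 called pairs with a joined locus were not computed in CPM per kilobase or among loci of their own. No paired analysis was possible because the series has 1 group. Depth limits the low genes most: Rad51d and Xrcc3 rest on 102 reads each in replicate 1.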

Other observations

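Lists of the other repair pathways stood at middle to high levels too. The minimum of 1 RPKM in both replicates was passed by all 7 mismatch repair loci, whose median was 80.4 RPKM in replicate 1 and 62.2 in replicate 2. The recognition gene Msh6 was highest (166 and 149), and Mlh3 was lowest (23.5 and 14.6). All 12 nucleotide excision repair loci passed (median 71.3 and 58.5), led by Ddb1 (227 and 301), Xpa, joined with Ncbp1 and Tstd2 (231 and 213), and Rad23b (185 and 164), with Ercc8 lowest (30.3 and 19.5).

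Base excision repair genes passed at 16 of 17 loci (median 37.0 and 26.4 RPKM). The endonuclease Apex1 (222 and 242), Parp1 (139 and 146) and the ligase Lig3 (49.9 and 62.1) were highest, and the glycosylase Neil2 was lowest (1.17 and 0.880, from 18 and 81 reads). All 10 end joining loci passed, with a lower median of 23.1 and 17.2 RPKM, and their 3 highest values belong to joined loci, Xrcc6 with Desi1 (141 and 146), Dclre1c with Suv39h2 and Gm13184 (122 and 98.2) and Xrcc4 with Tmem167 (83.3 and 54.0). Nhej1 was lowest, at 3.95 RPKM from 27 reads and 6.55 RPKM from 221 reads.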
